A study of Drosophila melanogaster with 9 samples.

Results

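The mitochondrial ribosomal protein genes of Drosophila melanogaster are nuclear genes whose symbols begin with mRpL for the large subunit and mRpS for the small subunit. Their promoters were described here by ATAC-Seq, in which transposase cuts open chromatin preferentially, and the number of reads at a site is taken as a measure of how accessible its DNA is. A member peak was any peak of the deposited count table within 500 bp of an annotated transcription start site (TSS) of such a gene. The rule found 69 member peaks among 17175 peaks in all, and 7876 other peaks lay within 500 bp of a TSS of another gene. The 69 peaks belonged to 63 of 73 annotated genes, with 44 peaks at 42 of the 47 mRpL genes and 25 peaks at 21 of the 26 mRpS genes. No peak was found within 500 bp of a TSS of mRpL17, mRpL19, mRpL28, mRpL30, mRpL38, mRpS2, mRpS9, mRpS16, mRpS18B or mRpS28, the remaining 10 genes. No count or fold change entered the rule, although the peaks themselves were called from these libraries.

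The libraries came from S2R+ cells, an established line of cultured embryonic Drosophila cells with hemocyte-like properties, which carried no transgene and received no agent in any group. All cultures were kept at 25 °C for 36 h and then for 24 h at 14, 25 or 29 °C, with 3 replicate libraries at each temperature and 9 in all. Tagmentation was done at 25 °C for every library. The methods and the labels differ on whether more cells were seeded for 14 °C, and an effect of seeding cannot be told apart from one of temperature.

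Mitochondria keep their own ribosomes, which translate the few membrane proteins of the respiratory chain that mitochondrial DNA encodes. The ribosomal RNAs come from mitochondrial DNA, whereas all proteins of these ribosomes are encoded in the nucleus, made in the cytoplasm and imported. Many have bacterial counterparts, and others, among them mRpL40, mRpL42, mRpL53, mRpS26, mRpS31, mRpS33 and mRpS35, belong to protein families with no bacterial counterpart. The genes are broadly active, since respiring cells need all components of both subunits.

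Libraries held between 3290670 and 10805366 counts in peaks, and member peaks took 0.315% to 0.333% of them in every library. The biological coefficient of variation over all peaks was 22.7%, against a counting error of 6.06% at the members' median mean count of 272.2, and the lowest count of any member peak in any library was 51. The spread of log2 counts over peaks differed between libraries of the same temperature. It was 1.06 in replicate 2 at 14 °C against 0.739 and 0.771 in replicates 1 and 3, and 1.32 in replicate 2 at 29 °C against 1.01 and 1.04. At 25 °C it was widest in replicate 3, with 1.15 against 0.891 and 0.945 in replicates 1 and 2. Results that rest on replicate 2 at 14 °C are therefore given also without it. Among hemocyte markers, 7 of 10 genes had a peak within 500 bp of a TSS, namely srp, eater, Ppn, Pxn, Col4a1, vkg and crq. Hml, NimC1 and gcm had none. Among markers of other cell types 4 of 11 annotated genes had a peak, elav, Mef2, esg and pros. The elav peak was taller per kb at 25 °C than those of all listed hemocyte markers but Ppn. The gene fz, which S2R+ cells are known to express, had a peak. In bulk libraries a site open in fewer cells and a site less open in each cell cannot be told apart.

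Most member peaks lay near gene starts that point away from each other. Of the 69 peaks, 49 (71.0%) had head-to-head starts of 2 different genes at most 500 bp apart in their window, compared with 1742 of the other promoter peaks (22.1%). With starts up to 1000 bp apart the shares were 78.3% and 27.6%. Divergent starts were not particular to the members, and were also common at other genes of mitochondrial gene expression, given below. A start of another gene lay within 500 bp of 58 of the 69 peaks, and for 39 of them the TSS nearest to the peak's midpoint belonged to that other gene. Partners included Mitofilin at mRpL35, Prosbeta2 at mRpL39, AGO1 at mRpL53 and Dg at mRpL34. A value at such a peak therefore stands for both genes of the pair, and reads in the peak cannot be assigned to either.

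The members were distributed over all major arms, where 2L held 10 of them, 2R 11, 3L 17, 3R 20 and X 11. The member's own TSS was inside the peak in 46 cases, and the median distance of the midpoint to it was 161 bp. At their midpoints, 30 peaks were between genes, 22 in a 5′ UTR, 8 in an intron, 7 in a coding exon, 1 in a noncoding exon and 1 in a 3′ UTR. The member peaks were of ordinary height. Their median level at 25 °C was 74.9 CPM per kb of peak, where CPM are counts scaled to a common library size, compared with 85.2 for other promoter peaks. The range was from 31.4 to 263 CPM per kb, compared with 13.3 to 4282 over the other promoter peaks, which are far more numerous. The SD over peaks of log2 CPM was 0.625 in members and 0.888 in other promoter peaks. Median GC content was 40.9% in member peaks and 42.5% in other promoter peaks.

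Short sequences known from core promoters were searched on both strands in the 501 central bases of each peak. The largest relative surpluses among member peaks were for the Myc E-box CACGTG (15.9% of member peaks, 6.83% of other promoter peaks), the DNA replication-related element DRE TATCGATA (17.4% and 9.32%) and the E-box CAGCTG (44.9% and 28.6%). The Myc E-box is bound by dimers of Myc and Max, and DRE by Dref. From 250 bases upstream to 50 downstream of RefSeq gene starts, the Myc E-box was in only 5 of 73 member genes (6.85%) and in 4.22% of other protein-coding genes. In the same windows the E-box CAGCTG was in 54.8% and 17.5%, DRE in 20.5% and 9.31%, and the ETS core CCGGAA in 4.11% and 6.81%. The GAGA motif GAGAG was less frequent in member peaks (33.3% and 53.3%). Core promoter motif 1 GGTCACAC, which M1BP binds, was found in 11.6% and 9.55%. Motif 7, searched as CATCNCTA or CAGCNCTA, was found in 17.4% and 12.7%. The ETS core CCGGAA was found in 15.9% and 13.3%, the site core GCGCATGC of the NRF1 family, to which ewg belongs, in 1.45% and 1.37%, and TATAAA in 52.2% and 46.5%. The shares of several motifs depended on the kind of promoter. At divergent starts DRE was in 12.2% of member peaks and 18% of other promoter peaks, the reverse of the pooled order, and at other promoters in 6 of 20 member peaks and in 6.85%. At divergent starts GAGA was in 38.8% of member peaks and 40% of other promoter peaks, whereas at other promoters it was in 4 of 20 member peaks and in 57% of the other promoter peaks. Motif 1 at divergent starts was in 12.2% and 17.7%, also the reverse of the pooled order, and at other promoters in 2 of 20 and 7.22%. The Myc E-box was in 18.4% and 7.75% at divergent starts, and in 2 of 20 and 6.57% at other promoters. For the E-box CAGCTG the shares were 44.9% and 33.7%, and 9 of 20 and 27.2%.

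**Figure D1:**
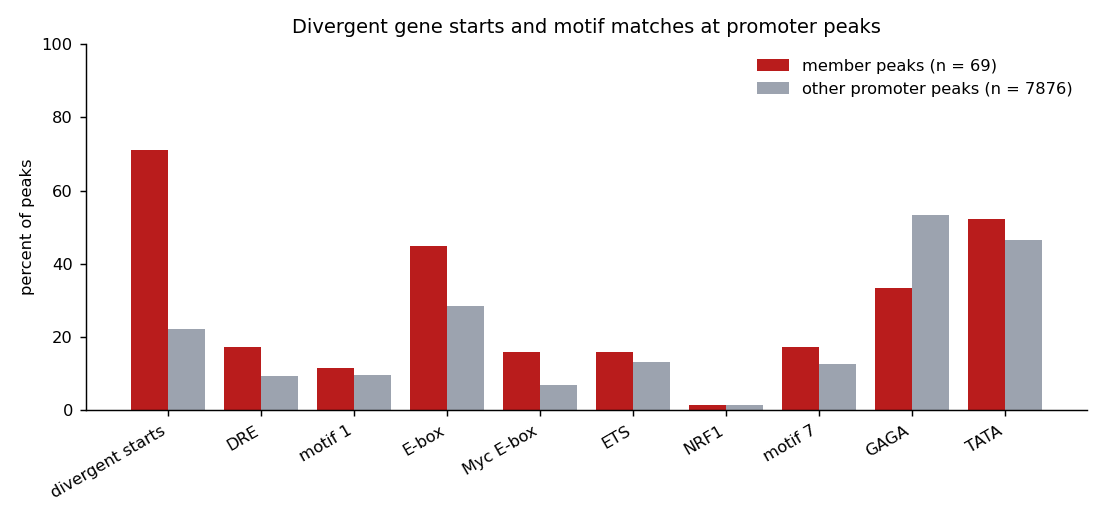
Percent of member peaks (red, n = 69) and other promoter peaks (grey, n = 7876) with divergent gene starts at most 500 bp apart and with at least 1 match to each motif in the 501 central bases. Divergent starts stand out, with 71.0% against 22.1%.

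An E-box was often found close to the gene start. The motif was not particular to these genes, as peaks of other genes of mitochondrial gene expression, given below, also held it. Over the annotated RefSeq starts of all protein-coding genes of the same genome release, an E-box CAGCTG was centred within 50 bases of the start in 35 of 73 mitochondrial ribosomal protein genes (47.9%) and in 1312 of 13871 other genes (9.46%). From 51 to 250 bases away the shares were 27.4% and 18.5%. The most occupied bin of 25 bases began at the start itself and held matches in 19 member genes (26% compared with 3.02% of other genes). Of the 36 matches near starts, 20 lay inside a member peak. The sequences below are shown because they carry this feature, and are those of 10 member genes with a match centred at most 10 bases from the start. The match of mRpL41, 6 bases from its start, is not shown. Each is written 5′ to 3′ on the strand of the gene, from RefSeq release 6 of the genome (dm6), with the E-box in capitals.
mRpL46, chr3L:1777425-1777454, plus strand: tgtgccgcaaatCAGCTGttccggctctgg
mRpL11, chr3R:14511821-14511850, plus strand: cagcaataccatCAGCTGttgctgcttctt
mRpL35, chr3R:22023510-22023539, plus strand: gtgaatggcacaCAGCTGactgttacgcga
mRpS21, chr3R:13381790-13381819, minus strand: agtgatattcatCAGCTGtttagcagtaca
mRpS34, chr3L:16348064-16348093, plus strand: agccagccggcaCAGCTGttcgaccttccc
mRpL45, chr3R:22618471-22618500, plus strand: aatcacgtttgcCAGCTGgtcgcgttagtg
mRpS2, chr2L:4850413-4850442, minus strand: aacactacccacCAGCTGtttaccaaaatc
mRpS25, chrX:14582959-14582988, minus strand: tagccgaccgatCAGCTGttcgcattacac
mRpS35, chr3L:2780875-2780904, plus strand: agtttctgtaaaCAGCTGattgcttgctat
mRpL33, chrX:4322207-4322236, minus strand: gataggcgcagtCAGCTGttcttcgttcct

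The bases beside the E-box were also shared. The form CAGCTGTT, or its reverse complement, made up 25 of the 36 matches near member starts (69.4%) and 45.8% of the 1406 matches near starts of other genes. The form ATCAGCTG made up 47.2% and 30.1%. These longer forms were chosen after the sequences had been seen. The mRpS2 start has the match but no peak within 500 bp, and mRpL17, mRpL19, mRpL28, mRpS18B and mRpS28, also without a peak, had 1 too.

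**Figure D2:**
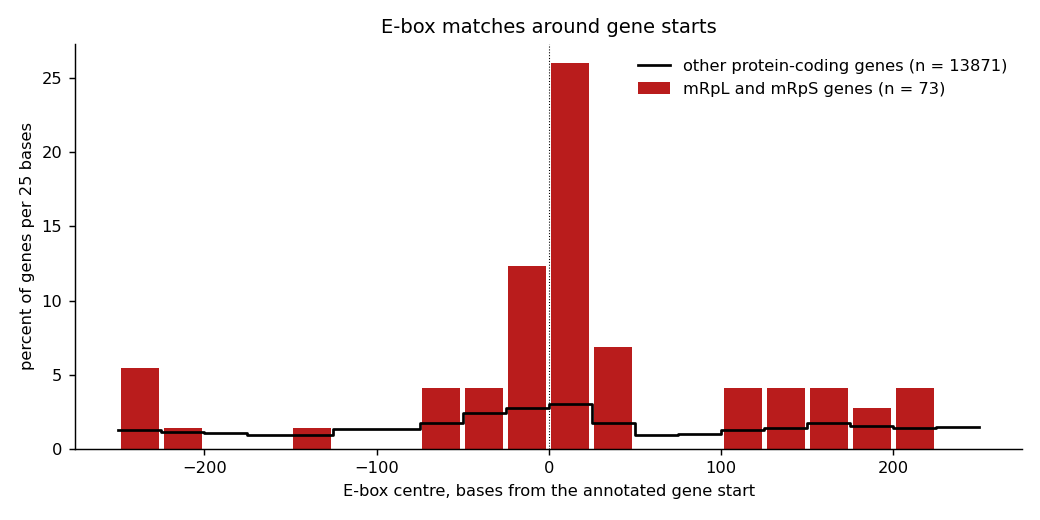
Percent of mitochondrial ribosomal protein genes (red bars, n = 73) and of other protein-coding genes (black line, n = 13871) with an E-box CAGCTG centred in each bin of 25 bases around the annotated gene start. The member genes reach 26% in the bin that begins at the start, where the other genes reach 3.02%.

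Stretches of 4 member peaks are shown because these peaks were among the 6 with the smallest p in each direction between 14 and 29 °C, none of which passed the threshold after adjustment, and hold searched motifs. They are printed on the strand of the member gene with motifs in capitals. At mRpL22 a DRE and the reverse complement of motif 7, CAGCNCTA, overlap in 1 run. At mRpL4 the stretch holds TATAAA. At mRpS33, within coding sequence, it holds 2 GAGA motifs in the form CTCTC, an E-box CAGCTG and a Myc E-box CACGTG. At mRpL40 it holds motif 1.
mRpL22, chrX:16783732-16783932, plus strand: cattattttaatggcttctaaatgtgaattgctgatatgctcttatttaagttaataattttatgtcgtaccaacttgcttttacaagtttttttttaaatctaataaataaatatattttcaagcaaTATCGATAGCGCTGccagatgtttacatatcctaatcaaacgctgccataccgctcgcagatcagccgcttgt
mRpL4, chr2L:16329133-16329333, minus strand: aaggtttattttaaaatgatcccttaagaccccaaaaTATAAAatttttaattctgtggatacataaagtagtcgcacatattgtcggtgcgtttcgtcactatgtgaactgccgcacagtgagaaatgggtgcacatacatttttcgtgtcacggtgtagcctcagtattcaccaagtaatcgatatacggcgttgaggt
mRpS33, chr3R:16437131-16437331, minus strand: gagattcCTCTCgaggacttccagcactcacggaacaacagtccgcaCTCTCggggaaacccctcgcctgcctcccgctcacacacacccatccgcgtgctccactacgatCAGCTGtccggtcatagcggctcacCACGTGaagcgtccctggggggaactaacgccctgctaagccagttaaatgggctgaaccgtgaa
mRpL40, chr3R:11407991-11408191, plus strand: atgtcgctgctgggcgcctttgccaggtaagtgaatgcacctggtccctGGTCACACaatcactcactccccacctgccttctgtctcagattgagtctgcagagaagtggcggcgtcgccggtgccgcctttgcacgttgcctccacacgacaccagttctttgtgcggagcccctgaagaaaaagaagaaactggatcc

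The first comparison asked whether accessibility at these promoters differed between the extreme temperatures. Accessibility of no member peak passed the threshold between 14 and 29 °C. With edgeR's quasi-likelihood test on all 17175 peaks and Benjamini-Hochberg adjustment, 0 of 69 member peaks had an adjusted p under 0.05, and 1.22% of all peaks and 73 of the 7876 other promoter peaks did. DESeq2 also called 0 members, and 12.6% of all peaks. At an unadjusted p under 0.05 there were 7 member peaks, or 10.1%, compared with 33.3% of all peaks. The smallest adjusted p among members was 0.128. The median standard error of a member's log2 fold change was 0.201, so small differences could not be resolved.

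The members' log2 fold changes were small and close together. For 14 against 29 °C they ranged from -0.65 to 0.45 with a median of -0.07, and their SD over peaks was 0.268. Other promoter peaks had a median of -0.17 and an SD of 0.446. A log2 fold change beyond 0.5 in either direction was found in 4 member peaks (5.80%) and in 28.4% of the other promoter peaks. An adjustment for peak height, given below, narrowed these differences. At 24 member peaks (34.8%) the value was above 0, as it was at 34.8% of other promoter peaks. The libraries did not overlap between 14 and 29 °C in 4 member peaks that were higher at 14 °C, mRpL14, mRpL23, mRpL42 and mRpS26, compared with 12.8% of all peaks. They did not overlap in 10 member peaks that were lower at 14 °C (14.5% of members), compared with 15.1% of all peaks.

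**Figure D3:**
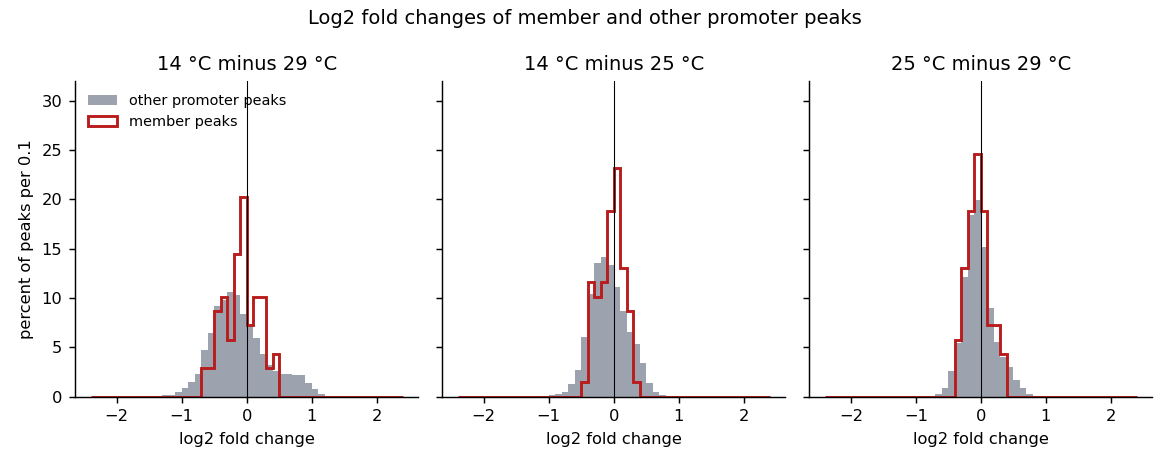
Distribution of log2 fold changes of member peaks (red outline, n = 69) and other promoter peaks (grey, n = 7876) in the 3 comparisons, as percent of peaks per bin of 0.1. For 14 minus 29 °C the members lie between -0.65 and 0.45, with an SD over peaks of 0.268 compared with 0.446 for the other promoter peaks.

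Fold changes went with the height of the peak. Over the 69 member peaks the log2 fold change for 14 against 29 °C correlated with mean log2 CPM at r = -0.478, and over the other promoter peaks at r = -0.541, both across peaks of the same libraries and given as a description. The tallest member peaks mostly had lower values at 14 °C, with mRpL23 an exception. With offsets per library from a loess curve against peak height, the median log2 fold change was -0.19 for members and -0.15 for other promoter peaks, the reverse order of the unadjusted medians. The SDs over peaks were then 0.257 and 0.371. Values beyond 0.5 in either direction were found in 6 member peaks (8.70%) and in 19.3% of other promoter peaks. The correlation with height was then 0.43 over members, 0.13 over other promoter peaks and -0.0075 over all peaks. Over the members the offsets therefore turned the relation to height and did not remove it, which limits all their values with height offsets. Scaling by total counts in peaks moved the median of all peaks from 0.02 to 0.16, and that of the members to 0.08, so the sign of the members' median is set by the scaling. Relative to the median of all peaks, the members were lower by a similar amount under both.

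**Figure D4:**
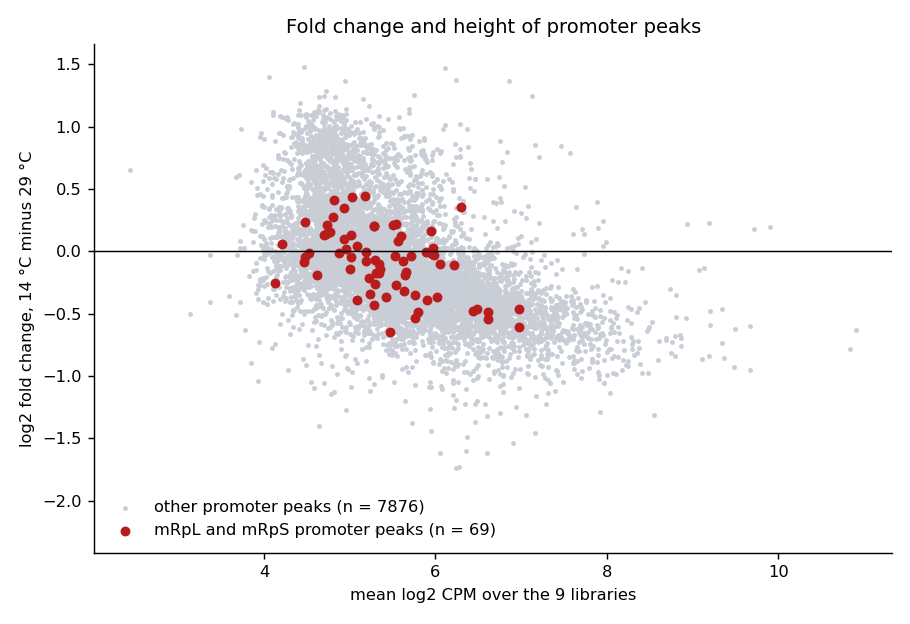
Log2 fold change between 14 and 29 °C against mean log2 CPM over the 9 libraries, for member peaks (red, n = 69) and other promoter peaks (grey, n = 7876). Most tall peaks of both kinds lie below 0, and member peaks stay between -0.65 and 0.45.

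The member peaks with the smallest p and a lower level at 14 °C were those of mRpL22, mRpS31, mRpL15, mRpL4, mRpS23 and mRpL53. In bacteria, the counterparts of mRpL4 and mRpL22 line the exit tunnel of the nascent peptide. At the mRpL22 promoter (chrX:16783658-16784158, midpoint 25 bp upstream of the TSS), replicates 1 to 3 had 28.2, 46.1 and 31.7 CPM at 14 °C, 33.6, 44.7 and 61.5 at 25 °C and 50.8, 65.4 and 50.3 at 29 °C. All 14 °C libraries were below all 29 °C libraries, with replicate 2 the highest of its group at both temperatures. The log2 fold change was -0.65 ± 0.251 (SE), the lowest of all members, with an adjusted p of 0.128 in edgeR. At the mRpS31 promoter (chr3L:16004245-16004745, midpoint in a 5′ UTR, nearest TSS that of the divergent neighbour hzg) the values were 39.1, 59.6 and 37.9 CPM at 14 °C, 46.8, 46.6 and 66.8 at 25 °C and 63.8, 71.6 and 63.6 at 29 °C. The groups at 14 and 29 °C again did not overlap, and the log2 fold change was -0.54 ± 0.217 (SE; adjusted p = 0.131, edgeR).

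The mRpL4 and mRpL15 peaks had closer replicates. At mRpL4 (chr2L:16328894-16329394), a promoter with no other gene start within 500 bp, the values were 29.7, 31.3 and 29.6 CPM at 14 °C, 30.6, 33.9 and 31.0 at 25 °C and 36.6, 44.1 and 37.8 at 29 °C. The 14 and 25 °C libraries lay together and the 29 °C libraries above them. The log2 fold change for 14 against 29 °C was -0.39 ± 0.165 (SE; adjusted p = 0.138, edgeR). At mRpL15 (chr3L:20435987-20436487), shared with CtIP, a gene of DNA double-strand break repair, the values were 49.0, 54.3 and 44.0 CPM at 14 °C, 49.1, 51.5 and 53.8 at 25 °C and 59.3, 66.3 and 62.0 at 29 °C. Here too the 29 °C libraries were above all others, with a log2 fold change of -0.35 ± 0.147 (SE; adjusted p = 0.137, edgeR).

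At mRpS23 (chr2L:13835221-13835721, nearest TSS that of CenG1A) the values were 40.3, 59.2 and 40.8 CPM at 14 °C, 53.7, 56.6 and 61.1 at 25 °C and 64.8, 80.2 and 51.6 at 29 °C. Replicate 2 at 14 °C overlapped the 29 °C group, and the log2 fold change was -0.49 ± 0.208 (SE; adjusted p = 0.139, edgeR). At mRpL53 (chr2R:13953844-13954344, nearest TSS that of AGO1, which encodes an Argonaute protein of the microRNA pathway) the values were 72.5, 143 and 91.4 CPM at 14 °C, 115.3, 139.1 and 140.6 at 25 °C and 145, 187 and 136 at 29 °C. Replicate 2 at 14 °C was again within the range of the 29 °C libraries. The log2 fold change was -0.60 ± 0.271 (SE; adjusted p = 0.148, edgeR).

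Higher at 14 °C, with the smallest p among such peaks, were mRpL23, mRpS33, mRpS26, mRpS35, mRpL40 and mRpL42. The bacterial counterpart of mRpL23 sits at the mouth of the exit tunnel. At mRpL23 (chr3L:2372974-2373963) the values were 94.3, 74.3 and 90.5 CPM at 14 °C, 92.7, 87.6 and 72.8 at 25 °C and 65.1, 71.0 and 66.4 at 29 °C. All 14 °C libraries exceeded all 29 °C libraries, with a log2 fold change of 0.35 ± 0.177 (SE; adjusted p = 0.174, edgeR). With height offsets its value was 0.70. At mRpS26 (chr3L:18106153-18106653) the values were 28.5, 32.2 and 34.1 CPM at 14 °C, 22.9, 32.8 and 33.1 at 25 °C and 21.8, 27.4 and 22.03 at 29 °C. The 14 and 29 °C groups did not overlap, while the 25 °C libraries overlapped both, and the log2 fold change was 0.41 ± 0.220 (SE; adjusted p = 0.195, edgeR).

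At mRpS33 (chr3R:16436981-16437481, in a coding exon) the values were 46.0, 27.5 and 39.4 CPM at 14 °C, 37.9, 31.6 and 31.6 at 25 °C and 33.6, 24.9 and 24.2 at 29 °C. At mRpS35 (chr3L:2781164-2781664, in a coding exon) they were 43.6, 30.5 and 54.6 CPM at 14 °C, 42.2, 35.2 and 32.1 at 25 °C and 35.5, 22.7 and 36.8 at 29 °C. In both peaks replicate 2 was the lowest at 14 °C and fell within the 29 °C range, and the log2 fold changes were 0.44 ± 0.231 and 0.45 ± 0.255 (SE; adjusted p = 0.190 and 0.215, edgeR). At mRpL40 (chr3R:11407783-11408283) the values were 38.9, 23.5 and 38.0 CPM at 14 °C, 35.8, 34.1 and 28.4 at 25 °C and 26.5, 22.4 and 30.2 at 29 °C, with the groups overlapping through replicate 2 at 14 °C. At mRpL42 (chr2R:10066420-10066920) they were 50.99, 46.1 and 53.2 CPM at 14 °C, 48.7, 38.8 and 40.7 at 25 °C and 43.8, 41.1 and 45.0 at 29 °C, with no overlap between 14 and 29 °C. Their log2 fold changes were 0.35 ± 0.240 and 0.21 ± 0.149 (SE; adjusted p = 0.293 and 0.299, edgeR).

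**Figure D5:**
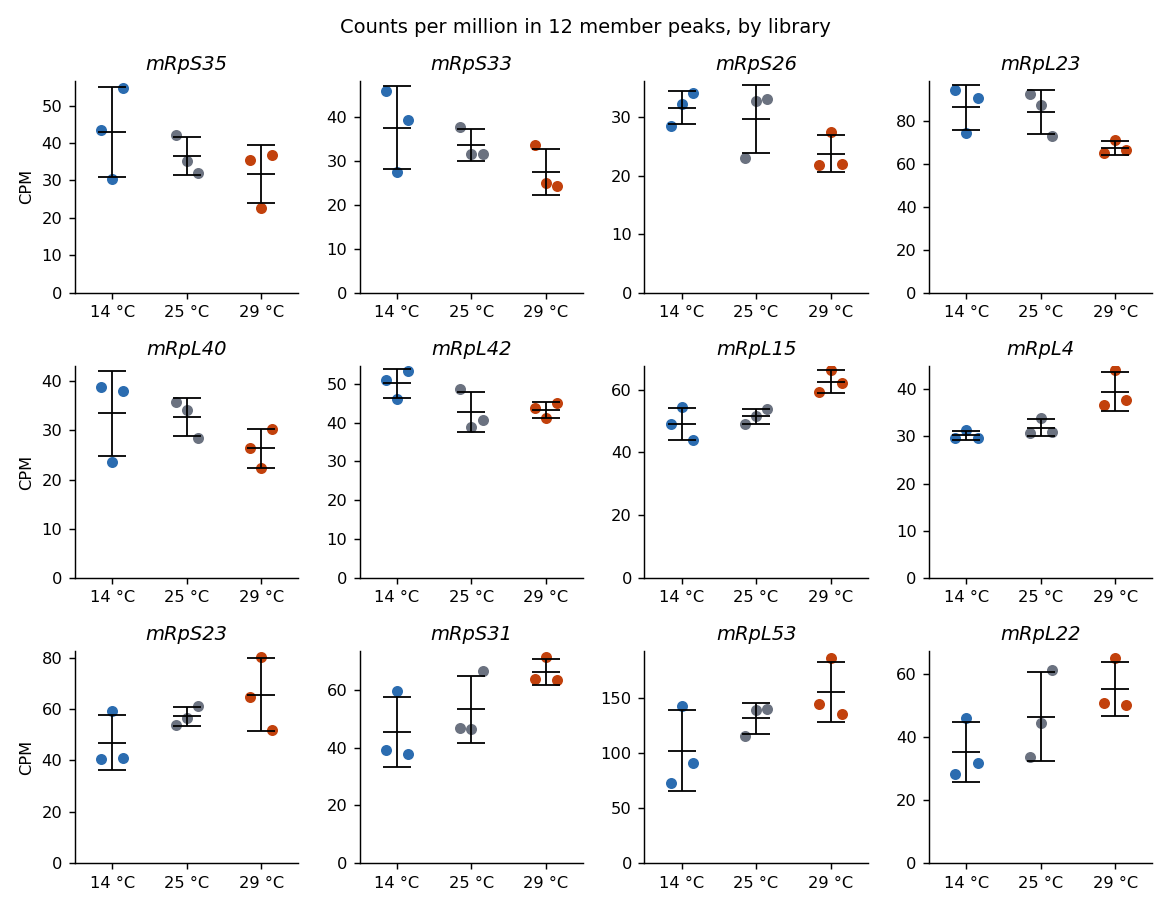
CPM in each library for the 6 member peaks with the smallest p and a higher level at 14 °C and the 6 with a lower level, as points by temperature with the mean and SD (n = 3 per temperature). At mRpL22, mRpS31, mRpL15 and mRpL4 all 14 °C libraries lie below all 29 °C libraries, and at mRpL23, mRpS26 and mRpL42 above them.

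The number of members called differed with the libraries and the model used. Replicate 2 at 14 °C was the highest 14 °C library in 33 of the 69 member peaks, a count made over member peaks only. Of these, 29 were among the 45 with a log2 fold change below 0. Without this library, edgeR called 18 member peaks, 3 higher and 15 lower at 14 °C, or 26.1% of members compared with 49.7% of all peaks. Without replicate 2 at 29 °C it called 0 members and 0.0524% of all peaks. Equal replicate numbers of 14 and 29 °C were taken as pairs from the correlation of their deviations. These correlations set only replicate 2 apart from the others, so pairing is not established. With the replicate number as a block on the 6 libraries of this comparison, 21 members were called, 4 higher and 17 lower (30.4%, compared with 58.6% of all peaks). With the block on all 9 libraries 0 members were called. With the block and height offsets, mRpL23 alone was called (7.51% of all peaks), and with the block and GC offsets mRpL22 and mRpL53 (15.5% of all peaks). In each of these fits the share of members called was below that of all peaks.

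Steps of the temperature range were compared next. Between 14 and 25 °C, 0 of 69 member peaks were called by edgeR (0.00582% of all peaks, a single peak), and 0 had an unadjusted p under 0.05, compared with 5.33% of all peaks. Their log2 fold changes lay between -0.42 and 0.31, with a median of -0.02 for members and -0.10 for other promoter peaks. Without replicate 2 at 14 °C these medians were -0.10 and -0.17, and without replicate 1 at 25 °C -0.09 and -0.15. Between 25 and 29 °C, 0 members were called (0% of all peaks), and 0 had an unadjusted p under 0.05 (4.58% of all peaks). Here the values lay between -0.36 and 0.32, with medians of -0.06 and -0.05. DESeq2 called 0 members in both, with shares over all peaks of 0.425% in the lower step and 0.116% in the upper. No member peak had a log2 fold change beyond 0.5 in either step. The edgeR test for any difference over the 3 temperatures called 0 members (0.0815% of all peaks), with a smallest adjusted p of 0.325, and DESeq2 called 0 members and 5.07% of all peaks. At an unadjusted p under 0.05 there were 0 members, compared with 15.7% of all peaks. Without replicate 2 at 14 °C it called 5 members, mRpL47, mRpL48, mRpL53, mRpS14 and mRpS31, compared with 22.6% of all peaks. The 25 °C mean lay between those of 14 and 29 °C in 38 member peaks (55.1%) and in 68.0% of other promoter peaks.

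The tallest member peaks per kb were shared with neighbours. At 25 °C the level was 263 ± 28.4 CPM per kb (SD, n = 3) at mRpL53, 214 ± 38.0 at mRpL47 next to Kdm3 and CG8176, 213 ± 50.3 at mRpL34 next to Dg, 195 ± 12.03 at mRpL48 next to CG17660 and 182 ± 22.3 at mRpS14 next to Naa15-16. Neighbours in this order did not differ beyond their SDs. The lowest levels were 31.4 ± 4.74 at mRpL49, 36.1 ± 0.835 at mRpS30, 38.6 ± 8.13 at the upstream peak of mRpS25, 40.4 ± 2.33 at mRpS18A and 43.5 ± 3.59 at mRpL12. Neighbours in this order again did not differ beyond their SDs, while mRpL49 and mRpS30 lay below mRpS18A and mRpL12 by more than theirs. The bacterial counterpart of mRpL12 forms the stalk that recruits translation factors.

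Over the 3 temperature means, mRpL22 had the widest range of log2 CPM at 0.67, followed by mRpL53 at 0.65 and mRpL47 at 0.57. At the other end, the range was 0.02 at mRpL35, 0.06 at the second peak of mRpS14 and 0.08 at mRpL51. At mRpL35 (chr3R:22022869-22023707), which shares its peak with Mitofilin, an organiser of mitochondrial cristae, the 9 libraries lay between 52.9 and 65.8 CPM. No temperature stood apart there.

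For 6 genes there were 2 member peaks. The mRpL39 peak at its TSS had 40.6, 45.5 and 35.5 CPM at 14 °C and 46.9, 53.2 and 46.3 at 29 °C, without overlap, whereas the peak farther upstream, in a coding exon and nearest to the TSS of Prosbeta2, had 23.0, 18.1 and 23.1 and then 19.8, 23.1 and 23.3, with full overlap. The log2 fold changes of the 2 peaks were -0.27 and -0.05 at mRpL39, -0.48 and -0.05 at mRpS14, -0.31 and -0.03 at mRpL27, -0.19 and 0.06 at mRpS25, 0.14 and 0.02 at mRpS24 and 0.28 and 0.20 at mRpS29. With height offsets the second value became 0.14 at mRpL27 and -0.25 at mRpS25, the first -0.12 at mRpS29, and both -0.31 at mRpS24, each with its sign turned. The difference between the peaks of a gene was not tested.

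By subunit, the median log2 fold change for 14 against 29 °C was -0.08 over the 44 large-subunit peaks and -0.01 over the 25 small-subunit peaks, with 12 peaks above 0 in each set. With height offsets the medians were -0.18 and -0.20, and without replicate 2 at 14 °C -0.08 and -0.03. By promoter type, the median was -0.08 over the 49 peaks at divergent starts and 0.08 over the 20 others, which were lower in height, with median log2 CPM of 5.53 and 5.05. With height offsets these medians were -0.19 and -0.20. Leaving out replicate 2 at 14 °C gave -0.19 and 0.09. The 31 peaks of genes with an E-box near the start had a median of -0.01, and the 38 of other members -0.10. Height offsets gave -0.13 and -0.23.

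Further genes of these ribosomes have other symbols, and their peaks were not called either. At the promoter of tko, which encodes the S12 protein, the 9 libraries lay between 20.4 and 32.5 CPM and the log2 fold change for 14 against 29 °C was 0.15 ± 0.222 (SE; adjusted p = 0.618, edgeR). At bonsai, which encodes the S15 protein, they lay between 37.6 and 53.3 CPM, with -0.11 ± 0.168 (SE; adjusted p = 0.628, edgeR). The 3 temperatures overlapped at both.

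Peaks of other genes of mitochondrial gene expression were likewise not called, where 1.22% of all peaks were. For mitochondrial aminoacyl-tRNA synthetases, 8 of 15 annotated genes had a peak, and the 8 log2 fold changes for 14 against 29 °C lay between -0.65 (AspRS-m) and 0.31 (TyrRS-m) with a median of -0.18. For mitochondrial translation factors, 5 of 9 had a peak, between -0.58 (mEFTu1, an elongation factor) and 0.36 (mIF3, an initiation factor). For mitochondrial transcription, replication and RNA, 10 of 14 had a peak, between -0.47 (mTerf3, a factor that also serves assembly of mitochondrial ribosomes) and 0.39 (mtTFB2, an initiation factor of mitochondrial transcription). In their central bases, the synthetase peaks held the E-box CAGCTG except at AsnRS-m and ProRS-m. So did those of mEFTs, mEFTu2, mIF3, TFAM, mtTFB2, PolrMT, mTerf5 and mtDNA-helicase, and also of tko and bonsai. Those of mEFTu1, mRF1, mTerf3, bsf, SLIRP1, SLIRP2 and PolG2 did not. The regulators include the GABP alpha homologue Ets97D, the NRF1 homologue ewg, the PGC-1 homologue srl, Myc, Dref and M1BP. Their 11 peaks lay between -0.73 (Myc) and 0.14, at a Dref peak nearest to the TSS of RpL13. The peak nearest to the TSS of Dref itself was at -0.12. Of the peaks of these lists 0 passed the threshold in either direction in any comparison, and the smallest adjusted p for 14 against 29 °C was 0.105, at AspRS-m. Divergent starts at most 500 bp apart were also common at the mitochondrial lists. The synthetase peaks lay at them except those of AspRS-m and TrpRS-m. So did those of mEFTs, mIF3 and mRF1, but not those of mEFTu1 and mEFTu2. In the transcription, replication and RNA list only the peaks of SLIRP1 and mtDNA-helicase did not.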

How the data were processed

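ATAC-Seq libraries of S2R+ cells (3 each at 14, 25 and 29 °C) were analysed from the count table the authors deposited. Per the labels and the methods, the authors trimmed reads with Trimmomatic 0.38, aligned them with Bowtie2 to dm6, kept uniquely mapped nuclear reads without duplicates, ran MACS2 on each library and used DiffBind for the counts in consensus peaks. The deposited raw counts are whole numbers, not normalized. The authors also deposited a normalized signal, equal within 1% to the raw count minus 1 divided by a size factor for 99.99% of values, which was used only for these size factors.

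Counts of all 17175 peaks were fitted with edgeR 4.0.16 in R 4.3.3 (TMM, robust quasi-likelihood, temperature as the only factor over 9 libraries, which leaves 6 residual degrees of freedom), and p-values were adjusted by Benjamini-Hochberg with a threshold of 0.05. CPM values use TMM-scaled totals, log2 values a prior count of 2, and standard errors come from the F statistic. Depth was 3290670 to 10805366 counts in peaks. Intervals and errors measure the spread between these libraries only, since replicates are described as replicate experiments without further detail. TSSs came from Ensembl release 115, and sequences and gene starts from the RefSeq genome of the same assembly. Printed stretches of peaks have at most 201 bases and leave out annotated UTR runs over 30 bases. Scripts were tested on simulated data.

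The members, gene lists and motifs were chosen with earlier results of these data known. Named peaks were all called members (0), the 6 with the smallest p in each direction for 14 against 29 °C, the 5 highest and 5 lowest per kb at 25 °C, the 3 widest and 3 smallest ranges over temperatures, genes with several member peaks, and tko and bonsai. No test was made over the members as a set.

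Whether replicate numbers pair libraries was judged from correlations over peaks of the deviations from group means. Equal numbers correlated at 0.634, 0.826 and 0.538 for 14 with 29 °C and were taken as paired, although replicate 1 at 14 °C correlated with replicate 3 at 29 °C at 0.559 and replicate 3 with replicate 1 at 0.551. They correlated at 0.671, -0.453 and -0.737 for 14 with 25 °C and at 0.528, -0.488 and -0.601 for 25 with 29 °C, and were taken as unpaired there. Replicate 3 at 25 °C correlated with replicate 2 at 14 °C at 0.817 and with replicate 2 at 29 °C at 0.761. Alternatives were RLE, total-count, deposited and promoter-based scaling, loess offsets (span 0.3) against height or GC content, the replicate block, DESeq2 1.42.0, 6 libraries only, a filter at a mean count of 182, thresholds of 0.01 and 0.1, TSS windows of 250 bp, the nearest TSS only, and each library left out.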

Additional observations from a re-analysis of the deposited data

How the results depend on the processing

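No member was called for 14 against 25 °C or 25 against 29 °C under any alternative run. Between 14 and 29 °C, 1 member passed with the replicate block and height offsets, 2 with the block and GC offsets and 21 with the block on 6 libraries. The block on all 9 libraries left the members at 0, while all peaks called went from 210 to 479, and DESeq2 called 2159 of all peaks. Leaving out 1 library gave 0 to 18 members, and 0 to 5 for any difference over the 3 temperatures, in both cases with the highest value without replicate 2 at 14 °C.

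The members' median log2 fold change minus that of other promoter peaks was 0.10 for 14 against 29 °C, 0.08 for 14 against 25 °C and -0.01 for 25 against 29 °C. For 14 against 29 °C it was -0.039 with height offsets, -0.042 with the block added and 0.17 over peaks whose nearest TSS is a member's. For 14 against 25 °C these were -0.017, -0.021 and 0.14, and for 25 against 29 °C the last was 0.038. Leaving out 1 library gave 0.043 (without replicate 2 at 29 °C) to 0.177 (without replicate 2 at 14 °C) for 14 against 29 °C. It gave 0.024 (without replicate 3 at 25 °C, and the same without replicate 1 at 14 °C, and 0.040 without replicate 3 at 14 °C) to 0.082 for 14 against 25 °C, and -0.032 to 0.064 (without replicate 3 at 25 °C; 0.023 without replicate 3 and 0.010 without replicate 1 at 29 °C) for 25 against 29 °C. The cause was not tested.

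Among the 6 peaks with the smallest p in each direction, tko and bonsai, height offsets turned the log2 fold changes of mRpL40 (-0.00067, with the block -0.0071) and tko (-0.25, with the block -0.26), and with the block also that of mRpS26 (-0.00057). GC offsets turned that of mRpS35 (-0.24, with the block -0.26). That of bonsai was 0.030 with total-count scaling, 0.054 with scaling to other promoter peaks and 0.014 with the filter. For these 14 peaks, 276 values kept direction and side of the threshold, 21 passed it and 10 reversed. Over all 69 member peaks, height offsets turned the sign at 18, of which 12 were above 0 before, among them mRpL12 (-0.18), mRpS29 (-0.12 at 1 of its peaks), mRpS24 (-0.31 at both peaks) and mRpS25 (-0.25 at 1 peak), and 6 were below 0, among them mRpL35 (0.14) and mRpL27 (0.14 at 1 peak). Over the members these offsets left fold changes correlated with height at r = 0.43, the opposite sign to that without them.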
